A study of Mus musculus with 39 samples.

Results

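The Oogenesin (Oog) and Prame-like (Pramel) genes belong to one large mouse gene family, most of it in tandem arrays on chromosome 4. A set of 10 of its genes was followed here through oocytes, cloned and fertilized 2-cell embryos and cumulus cells: Oog1, Oog2, Oog3, Oog4, Pramel1, Pramel4, Pramel5, Pramel6, Pramel7 and Pramef12, the last listed as Pramel13 in current RefSeq names. They were chosen by name, though with earlier results of these data known. A probe was assigned when the accession it was designed for led to one of these symbols in RefSeq. Of the 10 genes, 9 had a probe, with 1 probe for each, among 18905 named genes on the array. Oog2 had no such probe, so no level is given for it. Oog1 lies on chromosome 12, Pramel6 and Pramel7 on chromosome 2 and the other 6 measured genes on chromosome 4.

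The study asked how trichostatin A (TSA), an inhibitor of histone deacetylases, and the messenger RNA of the transcription factor Spi-C alter gene expression in mouse embryos made by somatic cell nuclear transfer (SCNT), in which the nucleus of a cumulus cell is placed in an oocyte whose own chromosomes were removed. RNA of 39 samples was amplified in 2 rounds, labelled with Cy3 and hybridised to 1-colour Agilent 44K arrays. All samples came from (B6xDBA/2)F1 mice. The females were superovulated with gonadotropins. Oocytes and cumulus cells, also those used to make embryos, were collected 15 h after human chorionic gonadotropin, and embryos were cultured for 24 h. The groups were unfertilized metaphase II oocytes (OC, 7 arrays), 2-cell embryos from in vitro fertilization (IVF, 6), SCNT 2-cell embryos without TSA (TSA(–), 8), SCNT 2-cell embryos given 5 nM TSA for 8 h from activation (TSA(+), 6), SCNT 2-cell embryos without TSA that received Spi-C mRNA at 1.0 mg/ml (Spi-C 1.0, 4) or 0.1 mg/ml (Spi-C 0.1, 4) at the pronuclear stage, and cumulus cells (Cumulus, 4). Each sample pooled 10 oocytes or embryos, or 500 cumulus cells, so p-values measure the spread between pools, and within a pool fewer cells carrying an RNA and less of it per cell cannot be told apart.

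All values below are log2 levels, that is, the scanner's processed signal on a log2 scale after subtraction of the 75th percentile over the probes of its array, which a level of 0 therefore equals. The level of a probe was compared between groups and never with the level of another probe, because probes bind their targets with different strength. A difference was called at a Benjamini-Hochberg adjusted p under 0.01 in limma, over the 39525 probes tested in a model of all 7 groups, and all 9 genes were among those tested. A probe is said to be well above background where the scanner software marked its spot so.

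The libraries fall into 2 technical sets. The 27 OC, IVF, TSA(–) and TSA(+) arrays were scanned on one scanner model and the 12 Spi-C and Cumulus arrays on another, with separate slides and days, so in any comparison across these sets scanner, slide and day cannot be told apart from the group. The share of probes well above background ran from 48.7% to 77.6% per array, lowest in OC. Of 15 oocyte marker genes, all 15 were well above background on every OC array. In Cumulus, 3 of the 15 (Gdf9, Dppa3 and Npm2) were well above background on every array and 8 on none. Of 17 cumulus and granulosa markers, 16 were well above background on every Cumulus array, the exception being Amh, and 6 were so on every OC array. Their summed log2 level was 9.17 to 9.43 in Cumulus, 7.52 to 8.97 in OC and 4.16 to 4.69 in IVF. In OC minus Cumulus 3 of these 17, Cyp19a1, Amh and Foxl2, were called higher and 13 lower, so the sum does not stand for each of them. All 5 leukocyte markers measured were well above background on every Cumulus array, with a summed level from 4.67 to 6.79 there and from −2.63 to −1.15 in OC. The part of such cells in the comparisons with OC and Cumulus was not tested.

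Oocytes store large amounts of messenger RNA during growth and transcribe little or none while they mature. After fertilization, stored RNA is degraded and the embryo's own genome is switched on, in the mouse mainly at the 2-cell stage. Prame-family proteins are built of leucine-rich repeats, and several of them act as substrate receptors of cullin-2 ubiquitin ligases. Oog1 was described as an oocyte protein that binds the small GTPase Ras and its effector RalGDS. Pramel6 and Pramel7 are known from the early embryo and from naive pluripotent stem cells, where Pramel7 with cullin-2 directs the degradation of UHRF1, the factor that brings the maintenance methylase DNMT1 to DNA.

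The DNA before the starts of these genes is shown because the 4 Oogenesins share long identical runs there. Pramel6 is set beside them as the window outside the Oogenesins that is most like theirs, with 55.6% to 58.1% of aligned bases identical over 300 bases. The sequences come from RefSeq, build GRCm38.p6, read 5′ to 3′ on the gene's strand, and are the 135 bases before each annotated start. They lie at chr12:87602530-87602664, plus strand for Oog1, at chr4:144190582-144190716, plus strand for Oog2, at chr4:144162652-144162786, minus strand for Oog3, at chr4:143450325-143450459, minus strand for Oog4 and at chr2:87506430-87506564, plus strand for Pramel6. Capitals mark the 6 runs of 8 or more letters that all 4 Oogenesin windows hold. The runs were picked for this, so their absence from Pramel6 is no finding.
Oog1: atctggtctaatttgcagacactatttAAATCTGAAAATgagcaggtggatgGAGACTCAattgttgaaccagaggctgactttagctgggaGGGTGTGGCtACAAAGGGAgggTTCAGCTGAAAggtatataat
Oog2: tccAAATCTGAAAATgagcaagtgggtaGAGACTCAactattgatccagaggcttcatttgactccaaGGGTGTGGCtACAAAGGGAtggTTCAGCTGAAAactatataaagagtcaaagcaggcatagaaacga
Oog3: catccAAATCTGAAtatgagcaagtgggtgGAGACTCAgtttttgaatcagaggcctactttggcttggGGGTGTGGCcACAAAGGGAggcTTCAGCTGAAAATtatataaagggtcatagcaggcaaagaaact
Oog4: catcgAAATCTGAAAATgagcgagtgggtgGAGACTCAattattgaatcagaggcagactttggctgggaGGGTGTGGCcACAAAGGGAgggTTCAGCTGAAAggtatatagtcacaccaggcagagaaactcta
Pramel6: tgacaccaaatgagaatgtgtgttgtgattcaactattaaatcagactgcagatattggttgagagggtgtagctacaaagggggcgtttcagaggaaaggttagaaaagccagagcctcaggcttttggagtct

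The longest shared run, TTCAGCTGAAA, stood 21 bases before the start in Oog1, 45 in Oog2, 44 in Oog3 and 43 in Oog4. Over the whole 300-base windows, which reach from 250 bases before to 50 bases after a start, it was found in 17 of 32851 mouse promoters (0.0517%), and 7 of these 17 are promoters of Oogenesin or Prame-family genes, of which the table holds 43. The run contains CAGCTG, a form of the E-box CANNTG to which basic helix-loop-helix factors bind. CANNTG alone was in all 10 windows, but also in 72.3% of all promoters. The other 5 runs were commoner, from 0.426% of promoters for AAATCTGAA to 1.49% for CTGAAAAT, and CTGAAAAT also occurs in the Pramel7 window, where the other 5 do not. These are descriptions of letters in a window and say nothing of what binds there.

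Pramel4 and Pramel5 had the most alike windows of the 10 genes, with 83.4% of aligned bases identical over 300 bases, against 65.7% to 76.7% between the Oogenesins and 48.5% between Pramel6 and Pramel7. Their upstream bases are shown because the GGATTA letters in capitals, the core read by homeodomain factors of the paired-like Obox and Otx kind, occur in these 2 windows and in none of the other 8. GGATTA, read on both strands, is in 7.06% of all promoters. The stretches lie at chr4:144058990-144059124, plus strand for Pramel4 and at chr4:144280467-144280601, minus strand for Pramel5.
Pramel4: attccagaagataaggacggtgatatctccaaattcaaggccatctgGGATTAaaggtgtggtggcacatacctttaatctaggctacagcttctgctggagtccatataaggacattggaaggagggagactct
Pramel5: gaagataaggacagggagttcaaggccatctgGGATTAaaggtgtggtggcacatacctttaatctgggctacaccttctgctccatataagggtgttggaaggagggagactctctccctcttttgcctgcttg

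Among other motifs read on both strands, TAATTG was in the windows of Oog3, Oog4 and Pramef12 (8.00% of all promoters), TATAAA in those of Oog2 and Oog3 (13.6%), and GAGGAA, an ETS-type core of the family to which Spi-C belongs, in those of Oog1, Oog2 and Pramel6 (28.3%). TTCNNNGAA, the letters read by STAT factors, was in none of the 10 windows and in 8.30% of all promoters.

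Between the oocyte and the 2-cell embryo the 9 measured genes parted into 3 sets. In IVF minus OC, Oog1, Oog3, Oog4 and Pramef12 were lower in the embryo, Pramel5, Pramel6 and Pramel7 were higher by 5.17 to 10.17 on the log2 scale, and Pramel4 and Pramel1 did not pass the test. The lower levels of Oog1 and Oog3 depend on the scaling, since after quantile normalization their differences were 0.19 and 0.05 and not called. Of all probes tested, 43.3% were called lower and 23.8% higher in this comparison (33.7% and 26.0% after quantile normalization, 69.2% and 15.8% after normexp background correction), so 4 lower genes of 9 is near that background, and 3 higher genes of 9 is not far from it. The median log2 difference of all probes was −0.88, and that of the 9 genes was 0.58.

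Oog1, the oocyte Ras-binding protein named above, had OC levels between 9.41 and 10.21 with a median of 9.94. Its IVF levels ran from 7.91 to 8.35 with a median of 8.12. All OC arrays were above all IVF arrays, and the OC mean was 3.38-fold that of IVF (log2 difference −1.76 ± 0.13, SE, limma adjusted p = 3.8e-14). Oog3 ran from 9.36 to 10.26 in OC (median 9.98) and from 7.92 to 8.24 in IVF (median 8.08), again without overlap, a 3.61-fold difference (−1.85 ± 0.13, adjusted p = 2.2e-15). Relative to the median of all probes the log2 differences were −0.88 for Oog1 and −0.98 for Oog3.

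Oog4 fell further. Its levels ran from 6.82 to 7.30 in OC (median 6.90) and from 3.17 to 3.77 in IVF (median 3.43), so that OC was 11.6-fold IVF (−3.53 ± 0.12, adjusted p = 1.1e-23). Under quantile normalization the log2 difference was −1.44 and still called. Pramef12, a Prame-like gene of the chromosome 4 cluster, ran from 9.04 to 9.68 in OC (median 9.48) and from 6.23 to 6.53 in IVF (median 6.40), an 8.39-fold difference (−3.07 ± 0.23, adjusted p = 1.5e-14). With quantile normalization it was −0.82 and just missed the threshold (adjusted p = 0.013). For both genes the OC arrays stood apart from every array of embryos, whether fertilized or cloned.

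Pramel6 showed the widest difference of the 9. It was not well above background on any of the 7 OC arrays, where its levels ran from −8.04 to −6.51, and well above it on all 6 IVF arrays, from 2.11 to 3.21 with a median of 2.75. The log2 difference of 10.17 ± 0.19 (adjusted p = 7.8e-31) is therefore given as a bound: IVF was at least 1061-fold higher at this scaling. For the bound, the OC level is taken as the higher of the probe's own signal and the lowest signal of any probe well above background on that array. Pramel7, the cullin-2 partner, ran from −5.57 to −3.18 in OC, where 4 of 7 arrays were well above background, and from 4.33 to 4.99 in IVF. IVF was 548-fold OC (9.10 ± 0.35, adjusted p = 2.2e-22), with no overlap. Pramel5, a neighbour of Pramel4 on chromosome 4, ran from −5.40 to −3.52 in OC, 5 of 7 arrays well above background, and from 0.37 to 1.11 in IVF, a 36.0-fold rise (95% interval 25.6 to 50.6; adjusted p = 5.0e-20). These 3 rises were called under every scaling tried. The normexp correction, which adds an offset to all signals, gave smaller log2 differences for them, of 5.59 for Pramel6, 6.76 for Pramel7 and 3.1 for Pramel5. The bound for Pramel6 does not hold there.

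Pramel4 was well above background in oocytes and in all embryos. Its OC levels ran from 1.64 to 2.42 (median 2.02) and its IVF levels from 2.40 to 2.83 (median 2.63), overlapping at the edge, with a log2 difference of 0.58 ± 0.25 that did not pass (adjusted p = 0.034). This value changes sign with the scaling: it was 1.29 and called after quantile normalization and −0.10 after median centring. So although Pramel4 and Pramel5 had the most similar promoter windows among the 10 genes, only the second was called higher in the embryo; the difference between the 2 changes was not tested. Pramel1, a family member without a role certain enough to give, stayed close to background everywhere. It was well above background on none of the 7 OC arrays and on all 6 IVF arrays, at a mean of −5.19 ± 0.82 (SD, n = 6), and the log2 difference of 1.56 did not pass the test (adjusted p = 0.025). Its direction depends on the background correction, since after normexp the difference was −0.93.

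**Figure D1:**
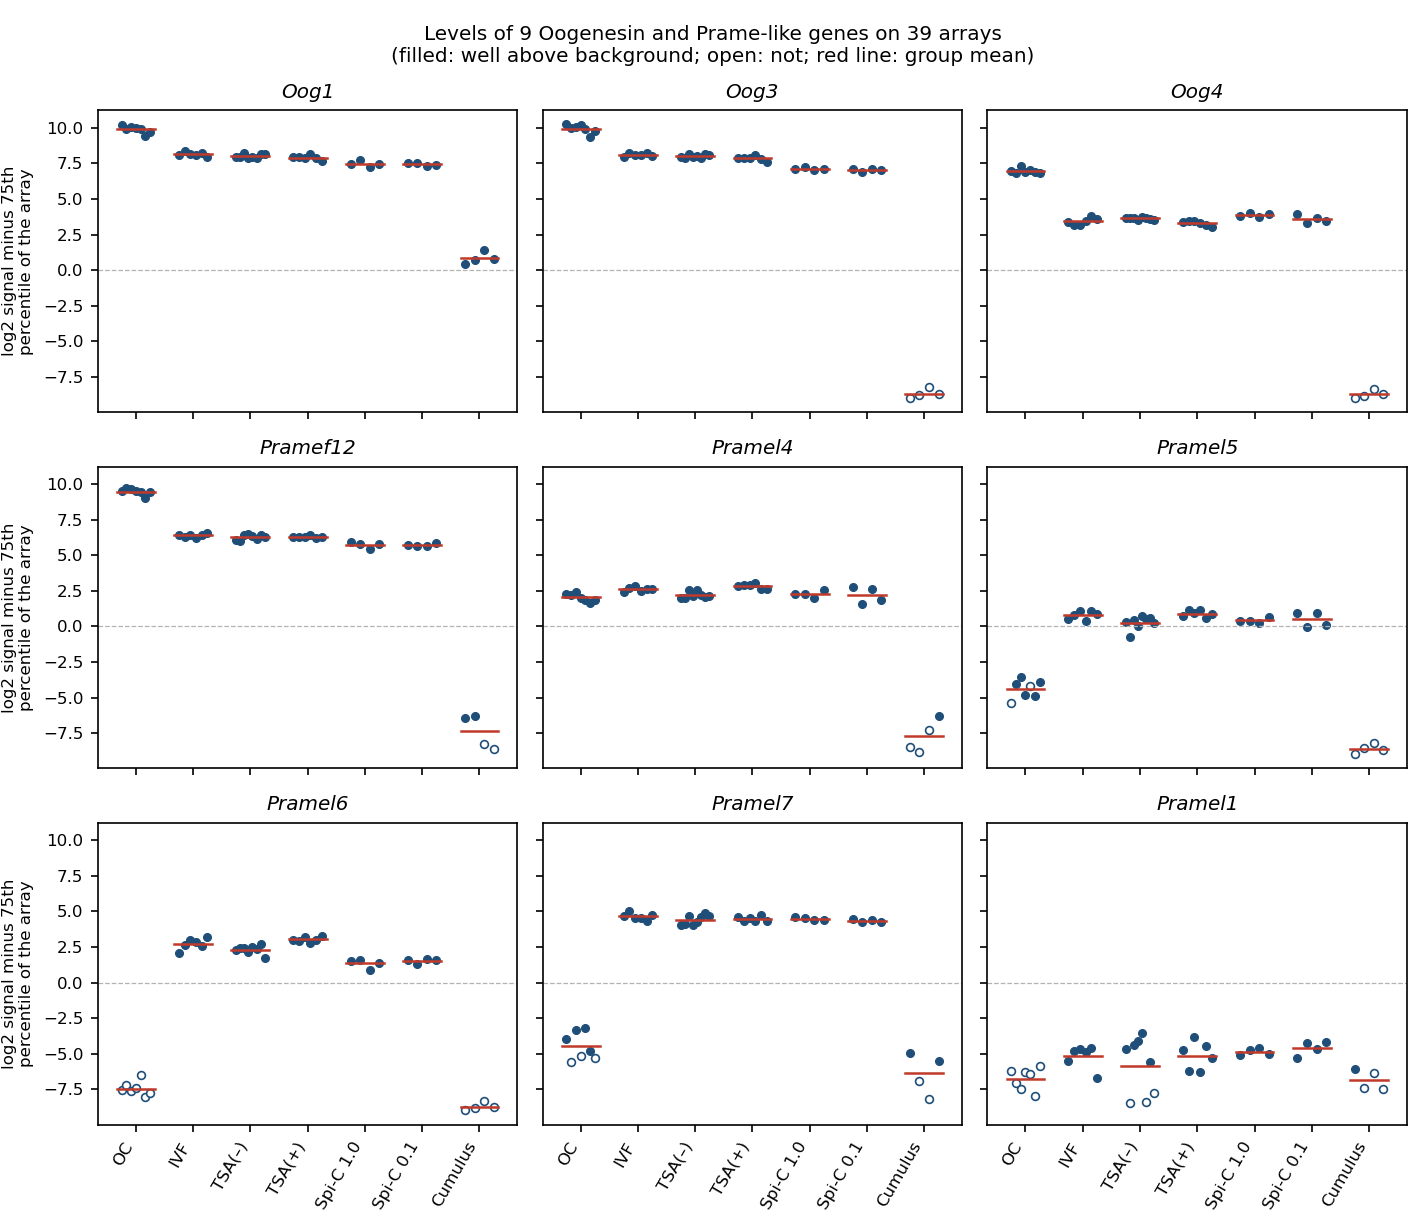
Log2 level (log2 signal minus the 75th percentile of the array, vertical axis) of the 9 measured genes on each of the 39 arrays, by group. Filled points are well above background, open points are not, and red lines are group means. Oog1, Oog3, Oog4 and Pramef12 are highest in OC (for Oog1 and Oog3 the step from OC to IVF has the opposite sign after quantile normalization, at 0.19 and 0.05), Pramel5, Pramel6 and Pramel7 are low in OC and higher in all 5 groups of 2-cell embryos, and Pramel1 overlaps in every group.

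Cloned embryos made the same steps from the oocyte, in a comparison that shares the OC arrays with the one above. In TSA(–) minus OC the same 4 genes were called lower and the same 3 higher, with 47.3% of all probes called lower and 23.8% higher (35.6% and 26.6% after quantile normalization, 71.4% and 15.7% after normexp). OC was 3.63-fold TSA(–) for Oog1 and 3.84-fold for Oog3, with quantile-normalized log2 differences of the opposite sign, 0.23 and 0.10, that were not called. It was 10.05-fold for Oog4 (quantile-normalized log2 difference −1.09, still called) and 9.09-fold for Pramef12 (−0.76, adjusted p = 0.012, no longer called). TSA(–) was 25-fold OC for Pramel5, 465-fold for Pramel7 and at least 794-fold for Pramel6 at this scaling. The bound for Pramel6 does not hold under every scaling, where the lowest log2 difference was 5.17, against 9.75 here. Pramel4 differed by 0.17 on the log2 scale (adjusted p = 0.51) and Pramel1 by 0.89 (adjusted p = 0.16), neither called. On the 2 slides that held both OC and IVF arrays and on the 4 that held both OC and TSA(–) arrays, each of the 7 called genes kept its direction on every slide at this scaling. Oog1, for example, ran from −2.31 to −1.67 in TSA(–) minus OC within slides, and Pramel7 from 7.65 to 10.09.

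**Figure D2:**
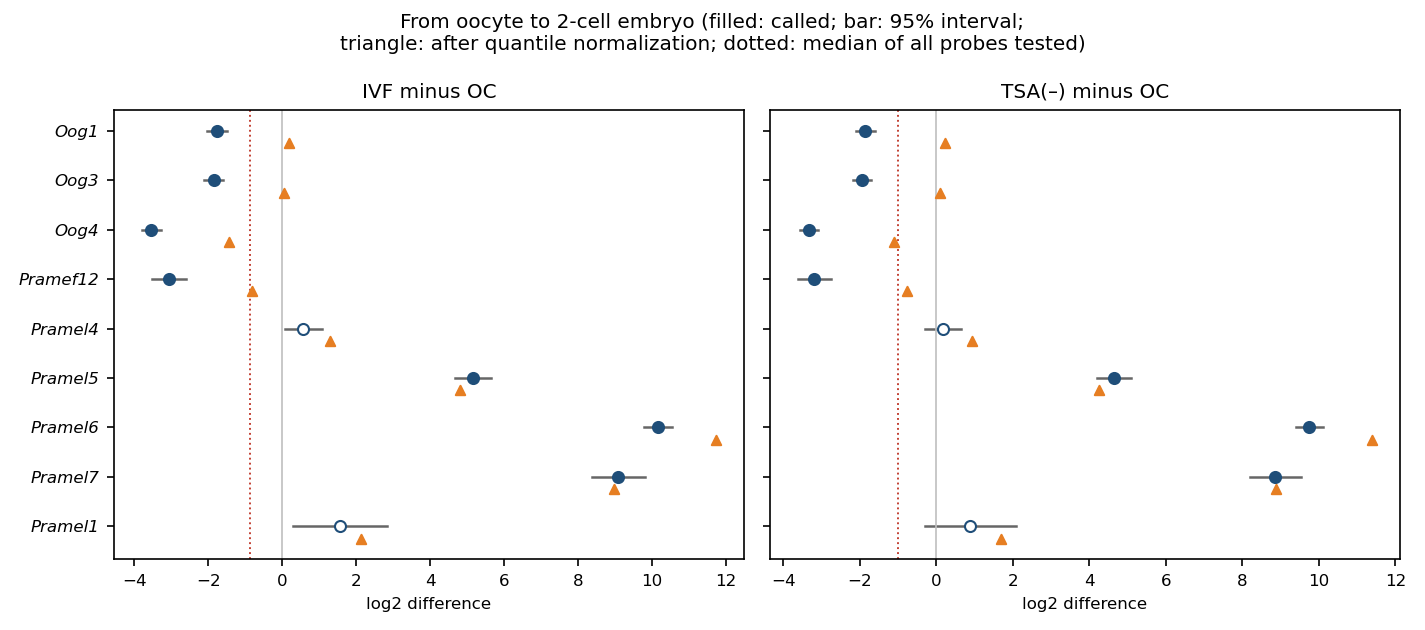
Log2 difference of the 9 measured genes from oocyte to 2-cell embryo (horizontal axis), for IVF minus OC on the left and TSA(–) minus OC on the right. Circles are differences at the 75th-percentile scaling with 95% intervals, filled where called, triangles are the same differences after quantile normalization, and the dotted line is the median of all probes tested (−0.88 and −1.0). The triangles of Oog1 and Oog3 lie just above 0, whereas Pramel5, Pramel6 and Pramel7 lie far above 0 either way.

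The donor cells of the clones carried little of these RNAs. In OC minus Cumulus, 8 of the 9 genes were called higher in OC, against 44.7% of all probes (33.1% after quantile normalization, 68.5% after normexp). In TSA(–) minus Cumulus the same count of 8 was called higher, against 31.1% of all probes (22.0% after median centring). Oog3, Oog4, Pramel5 and Pramel6 were not well above background on any Cumulus array. OC was at least 389257-fold higher than Cumulus for Oog3 and at least 50545-fold higher for Oog4 at this scaling, bounds that do not hold after normexp, where the log2 differences were 13.76 and 10.80, against 18.60 and 15.67 here. TSA(–) was at least 2017-fold higher than Cumulus for Pramel6 and at least 454-fold higher for Pramel5 at this scaling, where after normexp the log2 differences were 6.29 and 4.15, against 11.02 and 8.84 here. For Pramel6 both OC and Cumulus were below background, so no fold or direction is given between them, although it counts among the 8.

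Oog1 was the exception in cumulus cells. It was well above background on all 4 Cumulus arrays, at 0.45, 0.69, 1.39 and 0.79, still 9.06 below OC on the log2 scale (SE 0.15). The oocyte markers Gdf9, Dppa3 and Npm2 were also well above background on these 4 arrays, and the summed log2 level of the 15 oocyte markers ran from 0.34 to 1.2 in Cumulus against 11.55 to 12.26 in OC. The part of oocyte RNA in the Oog1 signal was not tested. Pramef12 and Pramel7 were each well above background on 2 of the 4 Cumulus arrays, Pramel4 and Pramel1 on 1. For Pramel7, OC and Cumulus arrays overlapped (log2 difference 1.91).

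Between IVF and cloned embryos no difference of the 9 genes was called. In TSA(–) minus IVF, where 20.7% of all probes were called, the count was 0 of 9 in limma and 0 by the one-way test with Tukey's post hoc comparison, and 2 of 9 had an unadjusted p under 0.05. These were Pramel5, with a log2 difference of −0.53 (95% interval −1.0 to −0.05; adjusted p = 0.091), and Pramel6, with −0.42 (−0.80 to −0.04; adjusted p = 0.089). The TSA(–) arrays of Pramel6 ran from 1.76 to 2.71 and overlapped with the IVF arrays. Oog1 and Oog3 differed by −0.10 (−0.36 to 0.16) and −0.09 (−0.34 to 0.16), and Pramel7 by −0.24 (−0.93 to 0.46). These intervals do not show that the groups are alike, but for Oog1, Oog3 and Oog4 they leave out changes of 1 or more on the log2 scale. In TSA(+) minus IVF, where 21.2% of all probes were called, the count was 0 of 9 by both tests, with 0 at an unadjusted p under 0.05.

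Trichostatin A itself called none of the 9 genes, with 0.299% of all probes called in TSA(+) minus TSA(–). A one-way test over the 7 groups with Tukey's comparison, where only the one-way p was adjusted over probes, called 1, Pramel6. In limma 4 of 9 had an unadjusted p under 0.05: Pramel6, Pramel5, Pramel4 and Oog4. No share of all probes by Tukey's comparison or by unadjusted p is given, here or above, so these counts have no background beside them. Pramel6 ran from 2.77 to 3.30 in TSA(+) and from 1.76 to 2.71 in TSA(–), without overlap, a log2 difference of 0.72 (0.34 to 1.1; adjusted p = 0.034). It passed the threshold after quantile normalization (adjusted p = 0.0049), median centring (0.0088) and normexp (0.0035), and with the slide as a fixed block it was 0.47 (adjusted p = 0.64). On the 1 slide that held both groups it was 0.58. Pramel4 ran from 2.61 to 3.07 in TSA(+) and from 1.97 to 2.59 in TSA(–), also without overlap (0.64, 0.15 to 1.12; adjusted p = 0.14). Pramel5 differed by 0.64 (0.17 to 1.12; adjusted p = 0.13) and its arrays overlapped. Oog4 differed the other way, by −0.32 (−0.57 to −0.08; adjusted p = 0.14), with TSA(+) arrays from 3.06 to 3.48 all below TSA(–) arrays from 3.52 to 3.75. For these 4 genes, the mean of TSA(–) lay on one side of IVF and that of TSA(+) on the other.

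After injection of Spi-C mRNA, Oog1, Oog3 and Pramel6 were lower than in TSA(–) embryos, at both concentrations. Oog3 was 7.11, 7.26, 7.01 and 7.07 in Spi-C 1.0 and 7.08, 6.89, 7.10 and 7.0 in Spi-C 0.1, whereas the 8 TSA(–) arrays ran from 7.86 to 8.15. All 8 Spi-C arrays were below all TSA(–) arrays. The log2 differences were −0.89 ± 0.14 (adjusted p = 1.4e-05) and −0.98 ± 0.14 (adjusted p = 2.7e-06), and they stayed called after quantile normalization, at −0.37 and −0.41. The share of all probes called lower was 4.06% for Spi-C 1.0 and 4.25% for Spi-C 0.1 (21.9% and 25% after normexp), and 3 of the 9 genes were called lower in each.

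Pramel6 was 1.52, 1.58, 0.87 and 1.39 in Spi-C 1.0 and 1.56, 1.31, 1.63 and 1.60 in Spi-C 0.1. Each of these 8 values was below the lowest TSA(–) array, at 1.76. The log2 differences were −0.97 ± 0.21 (adjusted p = 0.0010) and −0.79 ± 0.21 (adjusted p = 0.0073), called under every scaling tried. They are less firm against single arrays: without replicate 3 of Spi-C 1.0 the first was −0.82 (adjusted p = 0.014), and leaving out any 1 of the 4 Spi-C 0.1 arrays lost the second, with log2 differences from −0.83 to −0.72. Leaving out replicate 2, 3, 5, 6 or 7 of TSA(–) also lost the second.

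Oog1 was 7.45, 7.71, 7.24 and 7.43 in Spi-C 1.0 and 7.50, 7.53, 7.30 and 7.36 in Spi-C 0.1, all below the TSA(–) arrays from 7.87 to 8.25. Its log2 differences of −0.57 ± 0.15 (adjusted p = 0.0058) and −0.60 ± 0.15 (adjusted p = 0.0033) vanished after quantile normalization, at −0.02 and 0.000161. At 1.0 mg/ml the call was lost without replicate 1, 3 or 4 of Spi-C 1.0 or replicate 3, 7 or 8 of TSA(–), and at 0.1 mg/ml without replicate 3 or 4 of Spi-C 0.1, with differences from −0.65 to −0.49 and from −0.64 to −0.56 over all arrays left out. Pramef12 did not overlap with TSA(–) either, at 5.90, 5.81, 5.42 and 5.78 in Spi-C 1.0, but its difference of −0.54 was not called (adjusted p = 0.13). Oog4, Pramel4, Pramel5, Pramel7 and Pramel1 were not called in either comparison, with log2 differences from −0.07 to 1.27.

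Because the Spi-C arrays belong to the other technical set, the scanner, slides and days cannot be told apart from the injection in these differences. The median of all probes moved by 0.13 and 0.12 in the same comparisons, and the summed log2 level of the 15 oocyte markers was 8.93 to 9.19 in Spi-C 1.0 and 8.87 to 9.11 in Spi-C 0.1 against 9.31 to 9.55 in TSA(–). Of the 15, 2 were called higher and 2 lower in Spi-C 1.0 minus TSA(–), with a median log2 difference of 0.09. In Spi-C 0.1 minus TSA(–), 1 was called higher and 2 lower, with a median of −0.05. Of all probes, 5.97% and 5.35% were called higher, and 4.06% and 4.25% lower. The sum therefore does not stand for each marker. The part of these shifts in the lower Oog1 and Oog3 levels was not tested. Between the 2 concentrations, which were hybridised in the same set, none of the 9 genes was called by limma or by Tukey's comparison, 0 had an unadjusted p under 0.05, and the log2 differences of Spi-C 1.0 minus Spi-C 0.1 ran from −0.27 to 0.29. Only 0.00506% of all probes were called there.

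**Figure D3:**
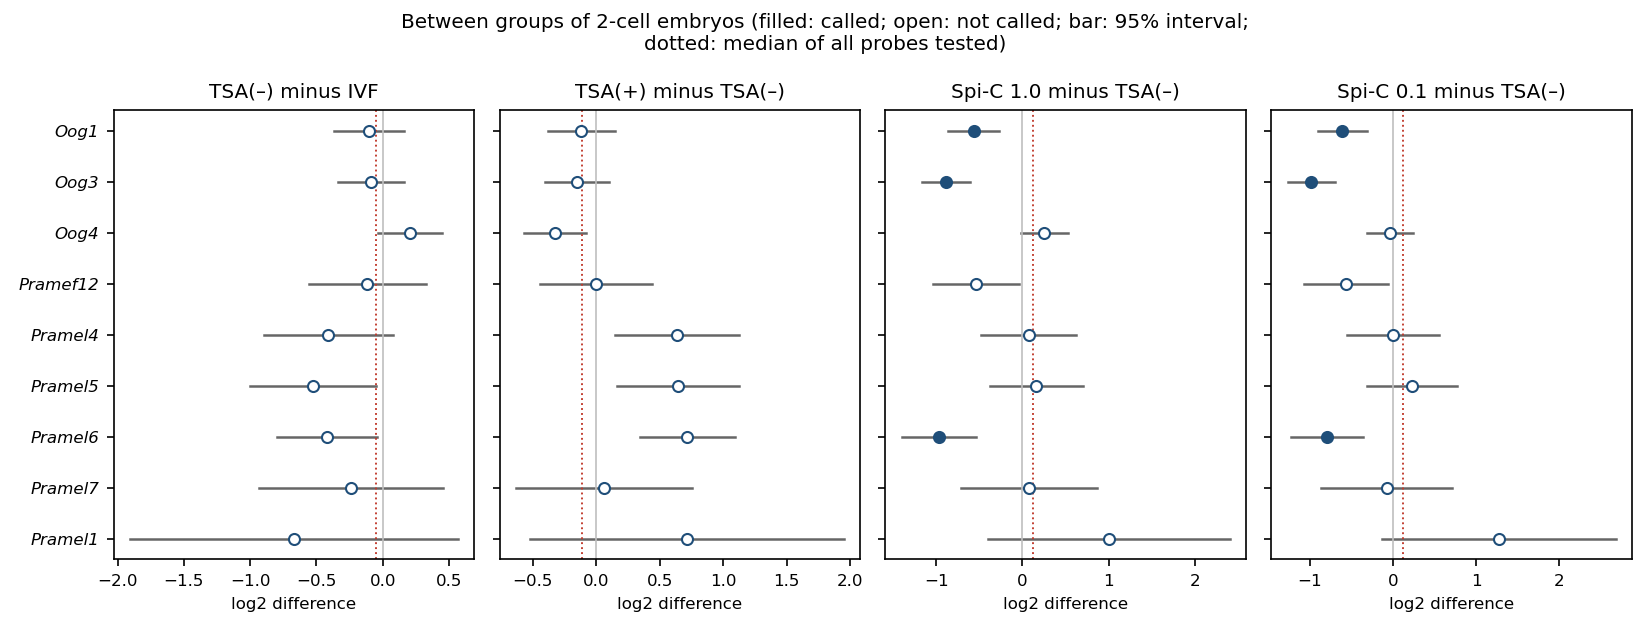
Log2 difference of the 9 measured genes between groups of 2-cell embryos (horizontal axis, its range set for each panel), with 95% intervals, filled where called, and the dotted line at the median of all probes. No gene is called in TSA(–) minus IVF or TSA(+) minus TSA(–), and Oog1, Oog3 and Pramel6 are called lower in both Spi-C comparisons. After quantile normalization the Oog1 differences are −0.02 and 0.000161.

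The levels of the 9 genes over the groups can be put in order at this scaling, by overlap of arrays and not by a test. Steps from the other groups to Spi-C or Cumulus cross the 2 technical sets. Oog3 and Pramef12 ran OC, then IVF, TSA(–) and TSA(+) with overlapping arrays, then both Spi-C groups, then Cumulus, with no overlap between these 4 steps. After quantile normalization Oog3 in IVF minus OC was 0.05, and Pramef12 was not called in either Spi-C comparison with TSA(–) (limma adjusted p = 0.13 and 0.12). Pramel6 ran TSA(+), IVF and TSA(–), overlapping as neighbours, then both Spi-C groups, then OC and Cumulus, which are not ordered here since both were below background. Pramel5 and Pramel7 had all 5 groups of 2-cell embryos together at the top, then OC, which in Pramel7 overlapped with Cumulus. In Oog1 and Oog4 the OC arrays were highest, the 5 embryo groups followed with each neighbour overlapping, and Cumulus was lowest. In Pramel4, OC joined the embryo groups without a gap, and in Pramel1 no neighbouring groups were separate.

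As a description of likeness, Pearson correlations were taken across the 39 arrays, which share groups and depth and so follow mainly the contrast of oocytes, embryos and cumulus cells. Among the members, Oog4 and Pramef12 had r = 0.991, Oog1 and Oog4 0.990, and Pramel6 and Pramel7 0.983. Of 18156 named genes, the 3 nearest to Oog1 were Pramel27, Fbxw16 and Dusp14 (each 0.996), and those nearest to Oog3 were E330034G19Rik (1.000), Omt2b and the oocyte-secreted Oosp1 (0.999 each). Oog4 was nearest to Pramel32 (0.998), A530021J07Rik and Fbxw16 (0.997 each). The nearest to Pramef12 were Fam241b (0.997), the BCL2-family gene Bcl2l10 (0.996) and Rhpn2 (0.995).

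Spz1, a helix-loop-helix gene first known from testis, was nearest to both Pramel6 (0.995) and Pramel7 (0.988). Usp50 and Cst7 (0.990 each) followed for Pramel6, and Dennd5a (0.987) and the alkaline phosphatase gene Alppl2 (0.986) for Pramel7. Pramel5 was nearest to the growth factor gene Fgf1 (0.986), Tdpoz1 (0.985) and the thiamine transporter gene Slc19a3 (0.984). Pramel4 was nearest to Efcab6 (0.987), the meiotic gene Iho1 (0.984) and Il17rd (0.983). Pramel1, near background, had no close neighbour: Slc14a2 was highest at 0.653, then Shroom4 (0.651).

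The array held 11 more genes of the family, on 12 probes, and each is described by its brighter probe where it had 2. Many family members are near copies of each other and the probe sequences were not used here, so the signal of a probe may include RNA of a near copy, for the 9 genes above as well. From OC to IVF, 3 of the 11 were called higher and 8 lower, beside 23.8% higher and 43.3% lower of all probes. This split depends on the scaling. After quantile normalization it was 6 higher and 2 lower, beside 26.0% higher and 33.7% lower of all probes. The largest called drops were those of Pramel32 (log2 difference −3.62, adjusted p = 2.1e-22) and Pramel29 (−2.68, adjusted p = 1.4e-13). The largest rises were those of Pramel37 (8.56, adjusted p = 3.0e-17) and Prame (7.81, adjusted p = 1.3e-13), the X-linked gene after which the family is named. Prame was not well above background on any OC array, and IVF was at least 207-fold higher at this scaling.

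The cloned embryos differed from IVF embryos in these genes and not, at the same threshold, in the 9 above, though the difference between the 2 sets was not tested. In TSA(–) minus IVF, 6 of the 11 were called lower and 1 higher (5 and 1 after quantile normalization), beside 11.4% lower and 9.35% higher of all probes. The 2 largest drops were those of Pramel39 and Pramel37, both on chromosome 5. Pramel39 ran from 3.56 to 4.48 in IVF and from −4.44 to 0.93 in TSA(–), with no overlap (−5.44, adjusted p = 2.4e-08). Pramel37 ran from 2.04 to 2.85 in IVF and from −4.90 to −1.03 in TSA(–) (−5.13, adjusted p = 3.0e-10). Prame was −4.31 (adjusted p = 7.4e-07), its arrays running from −1.67 to 1.38 in IVF and from −6.62 to −1.58 in TSA(–), with a slight overlap. The one called higher was Pramel29, from 5.94 to 6.35 in IVF and from 6.93 to 7.04 in TSA(–) (0.83, adjusted p = 0.0021).

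With TSA, the means of these 3 genes were nearer to IVF but remained lower. TSA(+) minus IVF was −4.09 for Pramel39, −3.79 for Pramel37 and −2.91 for Prame, and TSA(+) minus TSA(–) was 1.35, 1.35 and 1.40 without passing the test (adjusted p = 0.25, 0.13 and 0.21). Of the 11 genes, 7 were called lower in TSA(+) than in IVF, beside 12.49% of all probes. None of the 11 was called between TSA(+) and TSA(–), where only 0.299% of all probes were called. In Spi-C 1.0 minus TSA(–), 2 were called lower (Pramel12, −0.68, and Pramel27, −0.60, named after their values were seen), beside 4.06% of all probes, a count that became 1 lower and 1 higher after quantile normalization. In Spi-C 0.1 minus TSA(–) only Pramel27 was called lower of the 11 (−0.72), beside 4.25% of all probes, and Pramel12 was not (−0.60, adjusted p = 0.014). After quantile normalization 0 of the 11 were called lower there.

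**Figure D4:**
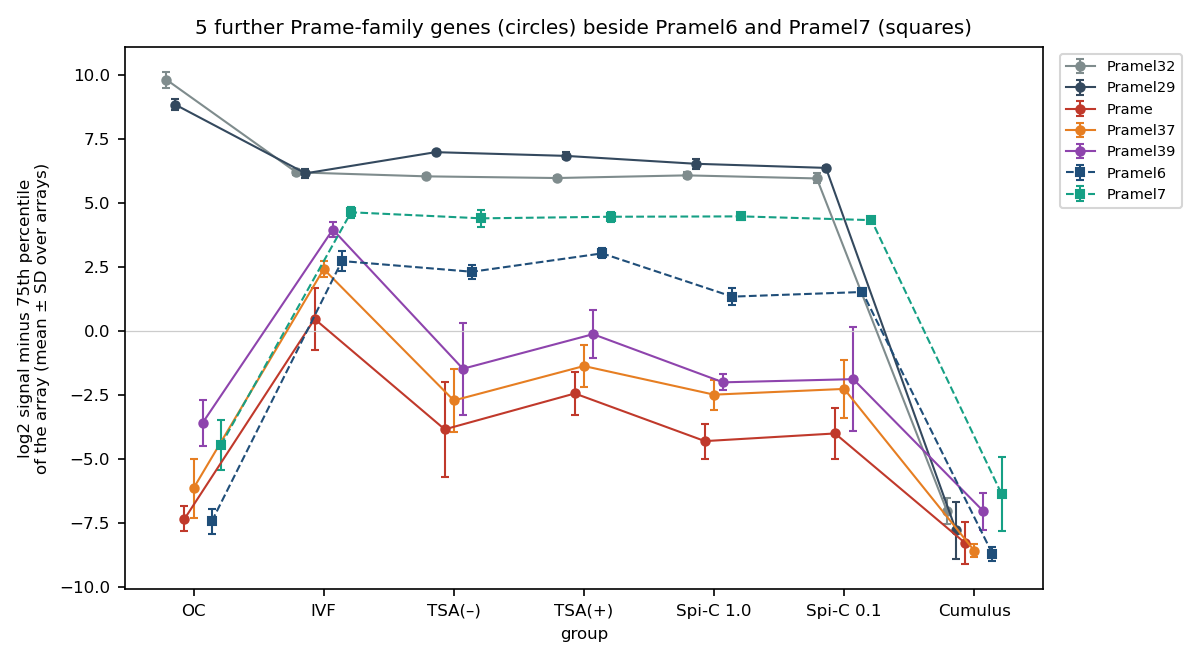
Mean log2 level (vertical axis, log2 signal minus the 75th percentile of the array) with SD over arrays for 5 further family genes (circles) and for Pramel6 and Pramel7 (squares) in the 7 groups. Prame, Pramel37 and Pramel39 rise from OC to IVF and are lower in every SCNT group, at −3.84, −2.71 and −1.48 in TSA(–), while Pramel7 is between 4.33 and 4.64 in all 5 groups of 2-cell embryos. Pramel29 and Pramel32 fall from OC to IVF at this scaling.

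The ubiquitin ligase in which several Prame-family proteins serve was followed in a list of 13 genes, of which 12 had a probe. From OC to IVF, 3 were called higher and 8 lower (6 higher and 4 lower after quantile normalization), with a median log2 difference of −1.77, beside 23.8% higher, 43.3% lower and a median of −0.88 over all probes. The cullin itself, Cul2, was lower in the embryo (−2.33), as were its RING partner Rbx1 (−1.90) and the adaptor Eloc (−1.33), although Rbx1 and Eloc had the opposite sign after quantile normalization, at 0.42 and 0.64. The second adaptor, Elob, was higher (2.27). Among substrate receptors of the same ligases, Zer1 (2.11, but −0.25 after normexp) and Appbp2 (1.85) were higher, whereas Lrr1 (−4.88), Klhdc2 (−2.36) and Fem1b (−1.64, but 0.50 after quantile normalization) were lower. Uhrf1 (−3.91) and Dnmt1 (−3.43), the methylation pair named above, were lower as well, and Zyg11b was not called. In TSA(–) minus IVF, Cul2 was called higher (0.82, adjusted p = 1.6e-06) and Eloc (−1.86), Rbx1 (−0.53) and Uhrf1 (−0.53) lower, beside 9.35% higher and 11.4% lower of all probes. After quantile normalization 1 of these 12 genes was called in each direction.

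Of 11 genes for Ras, Ral and the exchange factors between them, the pathway with which Oog1 was linked, 6 were called higher and 5 lower from OC to IVF, with a median of 1.52 (6 and 4 after quantile normalization), beside the same shares of all probes. The exchange factors Rgl2 (4.63), Rgl1 (3.51), Ralgds (2.10) and Ralgps1 (1.69) were higher, and so were Ralb, by at least 24.6-fold at this scaling since it was not well above background on any OC array, and Hras (1.52). Among the lower ones were Nras (−3.01), Ralgps2 (−2.65), Rala (−1.68) and Rgl3 (−1.11). Clones differed from IVF embryos in 7 of the 11, 5 higher and 2 lower, beside 9.35% higher and 11.4% lower of all probes, with Ralb furthest apart (3.37, adjusted p = 1.4e-09). In a list of LIF and STAT3 pathway genes, to which Pramel7 has been tied in stem cells, 7 of 8 had a probe. Of these, 3 were called higher and 4 lower from OC to IVF (3 and 2 after quantile normalization), beside 23.8% higher and 43.3% lower of all probes. In TSA(–) minus IVF 1 was called in each direction (2 higher and 1 lower after quantile normalization), beside 9.35% higher and 11.4% lower of all probes.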

How the data were processed

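Scanner files of 39 1-colour arrays were used. The authors deposited, for each array, processed signal intensities that the Agilent Feature Extraction software had corrected for background, and a series table of log2 values. The submitters' notes name version 9.5.3.1, while the file headers give 9.5.3.1 for 27 arrays and 10.5.1.1 for the 12 Spi-C and Cumulus arrays. The deposited log2 table held the same arrays with each probe centred on its median over arrays (r = 0.9999 with the scanner values treated the same way; column medians from −0.30 to 1.08) and served as an alternative.

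Processed intensity was log2-transformed, each array's 75th percentile was subtracted, outlier and control spots were left out and spots of one probe averaged. A probe entered the test if its processed intensity reached 10 on any array of IVF or SCNT embryos, which kept 39525 of 41174 probes, where the study used one-way tests with a post hoc comparison. A limma 3.58.1 model of the 7 groups (R 4.3.3) gave 10 comparisons, which share arrays, with Benjamini-Hochberg adjustment at 0.01. No array was dropped or imputed. The fits were tested on simulated data. The number of arrays limits the precision. The labels do not say that replicates came from separate mice.

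Named genes were the 9 members, the 3 genes most correlated with each, the 2 other family genes with the largest called change in each direction in IVF minus OC and in TSA(–) minus IVF, and the partners called in IVF minus OC. A few genes that this rule names are not reported here. Members and lists were chosen with earlier results of these data known. Alternatives were other scalings (quantile, median), normexp background correction with an offset of 50, the authors' log2 table, other probe filters, other sets of arrays, Tukey's test, other thresholds, slide, scan day or replicate number as a block, and each array left out. Replicate numbers were not used to pair samples, since deviations of same-numbered samples had correlations from −0.09 to 0.15. Slide as a random block had a consensus correlation of 0.028. Sequences were taken from RefSeq promoters of GRCm38.p6, and probe names from RefSeq.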

Additional observations from a re-analysis of the deposited data

Results flagged for a closer look

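Of 98 sets of a gene and a group with 4 to 8 arrays, 2 held an array that stood apart from the others by Dixon's criterion, where chance alone gives about 1 in 20. The Pramel5 level in replicate 2 of TSA(–) was −0.75, against 0.04 on the nearest of the other 7 arrays and 0.74 on the highest. The Pramef12 level in replicate 6 of OC was 9.04, against 9.42 on the nearest of the other 6 arrays and 9.68 on the highest. Both spots were well above background.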

How the results depend on the processing

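The calls of Pramel5, Pramel6 and Pramel7 from oocyte to 2-cell embryo kept their direction and stayed called under all alternatives run, whereas those of Oog1 and Oog3 did not. Pramef12 kept its direction there but was no longer called after quantile normalization, with differences of −0.82 in IVF minus OC and −0.76 in TSA(–) minus OC. Over all alternatives and comparisons, 1864 values of called member differences stayed called in the same direction, 30 missed the threshold and 6 changed sign, and 10 counts of called members moved by more than 1.5 times while 531 did not. Most of these values come from fits with an array left out, 1386 of those that stayed called and 18 of those that missed the threshold. Under quantile normalization alone, 27 stayed called, 3 missed the threshold and 6 changed sign. After quantile normalization the sign turned for Oog1 in IVF minus OC (0.19), TSA(–) minus OC (0.23), TSA(–) minus IVF (0.042), TSA(+) minus IVF (0.052), TSA(+) minus TSA(–) (0.010), Spi-C 0.1 minus TSA(–) (0.000161) and Spi-C 1.0 minus Spi-C 0.1 (−0.020), for Oog3 in IVF minus OC (0.050), TSA(–) minus OC (0.10) and TSA(–) minus IVF (0.054), for Oog4 in Spi-C 0.1 minus TSA(–) (0.065), for Pramef12 in TSA(–) minus IVF (0.058), TSA(+) minus IVF (0.10), TSA(+) minus TSA(–) (0.044) and Spi-C 1.0 minus Spi-C 0.1 (−0.030), for Pramel1 (−1.56) and Pramel6 (−0.013) in OC minus Cumulus, for Pramel7 in Spi-C 0.1 minus TSA(–) (0.12), for Pramel29 in TSA(–) minus OC (0.59), for Pramel32 in TSA(–) minus IVF (0.0068), and for Eloc (0.64), Fem1b (0.50) and Rbx1 (0.42) in IVF minus OC. Median centring turned Oog1 (0.073), Oog3 (0.040), Pramef12 (0.19), Pramel29 (0.045) and Pramel32 (0.12) in TSA(+) minus TSA(–), Oog4 (0.095), Pramef12 (0.098) and Pramel7 (0.041) in TSA(+) minus IVF, Oog1 (−0.031) and Pramef12 (−0.047) in Spi-C 1.0 minus Spi-C 0.1, Pramel4 (−0.13), Pramel5 (−0.049) and Pramel7 (−0.13) in Spi-C 1.0 minus TSA(–), and Pramel4 in Spi-C 0.1 minus TSA(–) (−0.14), IVF minus OC (−0.10) and TSA(–) minus OC (−0.49) and Pramel1 in OC minus Cumulus (−0.16). Normexp turned Pramel1 in IVF minus OC (−0.93), TSA(–) minus OC (−1.10), TSA(–) minus Cumulus (−0.12), TSA(+) minus IVF (−0.076) and Spi-C 1.0 minus TSA(–) (−0.19), Pramef12 in Spi-C 1.0 minus Spi-C 0.1 (−0.0025), Prame in TSA(–) minus OC (−0.13) and Zer1 in IVF minus OC (−0.25). The authors' values turned Pramef12 in TSA(+) minus TSA(–) (0.0098). With the slide as a fixed block Oog1 (0.059) and Oog3 (0.0024) turned in TSA(+) minus TSA(–), and Pramel7 in TSA(+) minus IVF (0.12). The cause was not tested.

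The replicate block turned Pramef12 in TSA(+) minus TSA(–) (0.0066), Pramel4 in Spi-C 1.0 (−0.0061) and Spi-C 0.1 minus TSA(–) (−0.080) and Pramel7 in Spi-C 0.1 minus TSA(–) (0.0088), and lost the call of Pramel6 in Spi-C 0.1 minus TSA(–) (−0.82, adjusted p = 0.016), so that 2 genes were called there instead of 3. In every other comparison the count of members called with this block was within 1.5 times the count without it.

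With a change of at least 2-fold also required, 0 genes were called in either Spi-C comparison with TSA(–). In TSA(+) minus TSA(–), 1 gene was called at an adjusted p under 0.05, 1 after median centring, 1 after quantile normalization, 1 by Tukey's comparison and 2 (Pramel6 and Pramel4) after normexp. More probes were called under these scalings as a whole. Of the 39525 tested, 118 were called at the main scaling, 214 after median centring, 206 after quantile normalization and 490 after normexp. No such number is given for an adjusted p under 0.05 or for Tukey's comparison. With each array left out in turn, the counts ran from 1 to 3 in Spi-C 1.0 minus TSA(–), at 1 without replicate 3 of Spi-C 1.0, and from 1 to 3 in Spi-C 0.1 minus TSA(–), at 1 without replicate 3 or 4 of Spi-C 0.1. The differences with a turned sign in some of these ran from −0.044 to 0.11 for Oog1, −0.035 to 0.12 for Pramef12, −0.14 to 0.26 for Pramel4 and −0.23 to 0.087 for Pramel5 in Spi-C 1.0 minus Spi-C 0.1, from −0.14 to 0.060 for Oog4 and −0.19 to 0.22 for Pramel4 in Spi-C 0.1 minus TSA(–), from −0.019 to 0.17 for Pramel4 in Spi-C 1.0 minus TSA(–), from −0.037 to 0.033 for Pramef12 in TSA(+) minus TSA(–), and for Pramel1 from −0.16 to 0.32 in OC minus Cumulus and −0.26 to 0.27 in TSA(+) minus IVF. Slide and scan day as fixed blocks could be fitted only where slides or days link both groups. For spots not well above background, as with Pramel6 in oocytes, signal over background limits a fold to a bound.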
